A study of Neurospora crassa with 22 samples.

Results

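Total RNA extracts (inputs) of the non-tagged wild-type of Neurospora crassa were compared with and without Nikkomycin Z. The comparison held 6 of the 22 libraries of the series, chosen by their labels: 3 wild-type inputs from hyphae that received 1e-05 M Nikkomycin Z for the last 1 h before RNA extraction, and 3 from hyphae without the drug. Both groups were the wild-type strain and genotype, grown in Vs medium, which is Vogel's minimal medium with 1.5% sucrose. The other libraries were GFP pull-downs of the same strain, and pull-downs and inputs of a strain in which, by its label, GUL-1-GFP, expressed from the ccg-1 promoter, replaces the deleted gul-1.

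Nikkomycin Z is a competitive inhibitor of chitin synthases, the membrane enzymes that polymerise chitin for the fungal cell wall. Chitin lies in the wall with beta-1,3-glucan, made by a synthase in the plasma membrane, and with glucans and proteins that are crosslinked outside the membrane. In fungi, sensors in the plasma membrane report wall damage through protein kinase C to a MAP kinase cascade, which in N. crassa consists of MIK-1, MEK-1 and MAK-1. GUL-1, the homologue of the yeast RNA-binding protein Ssd1, acts in the pathway of the kinase COT-1, which controls hyphal elongation.

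Most counts of these inputs fell on rRNA features, between 92.6 and 99.8% per library, although the study describes oligo(dT) selection. With Nikkomycin Z, protein-coding genes received 333220, 430811 and 255490 counts in replicates 1 to 3. In standard medium they received 178300, 50469 and 59. Standard replicate 3 thus held almost no mRNA: 20 of 9757 protein-coding genes had any count, against 5660 and 3040 in the other standard inputs and 5949 to 6584 with the drug. In that library 3 counts correspond to 15.7 CPM (the count per unit of library size, after TMM scaling), so a 0 there says little about any transcript. The counts of called transcripts are therefore given with and without it.

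The share of all counts on protein-coding genes was 1.49, 1.54 and 1.16% with Nikkomycin Z and 0.890, 0.609 and 0.0227% in standard medium. The groups did not overlap, with 1.40 ± 0.206% against 0.507 ± 0.443% (mean ± SD, n = 3 each), and without standard replicate 3 the control mean was 0.750%. An exact permutation test, two-sided, gave p = 0.1, the smallest value that 3 against 3 allows. For rRNA the share was 95.3 ± 0.447% against 96.4 ± 3.60% (n = 3 each, exact permutation p = 0.7), and the groups overlapped. Less mRNA in the standard inputs and fewer mRNA molecules captured into their libraries cannot be told apart.

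**Figure D1:**
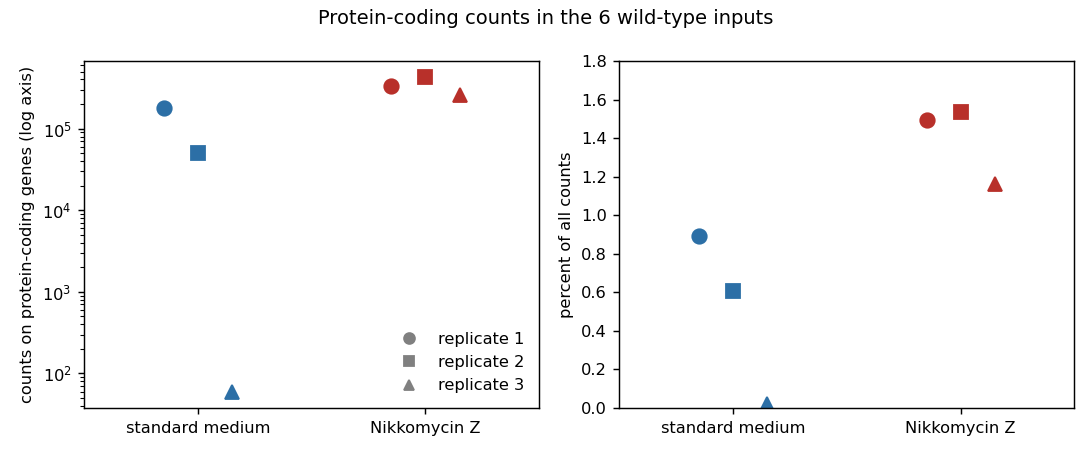
Counts on protein-coding genes (left, log axis) and their percent of all counts (right) in each wild-type input, with 1 symbol per replicate. All 3 Nikkomycin Z inputs lie above all 3 standard inputs, and standard replicate 3 lies at 59 counts.

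Of the features tested, 66 were higher and 5 lower with Nikkomycin Z (edgeR's quasi-likelihood test, adjusted p under 0.05), which is 0.928% and 0.0703% of 7114. Without standard replicate 3 the counts were 31 and 4, all of them among the 71, or 0.436% and 0.0562% of 7115. The median log2 fold-change (log2FC) over all features was 0.55, so that a value of 0.55 is that of the middle transcript. With transcripts at 0 in all libraries of a group set to the bound that 3 counts allow, that median was 0.37. When each library was scaled to its protein-coding counts instead, the median was -0.04, and 23 transcripts were higher and 57 lower. That is 0.356% and 0.882% of 6459, or 4 and 12 transcripts (0.0609% and 0.183% of 6572) without standard replicate 3. All 23 were among the 66 and the 5 lower calls were among the 57, but the balance of rises and falls depended on the scale.

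The calls rested on few libraries. No transcript passed without standard replicate 2 (edgeR's quasi-likelihood test, 0 higher and 0 lower, with 610 and 185 at an unadjusted p under 0.05). Without standard replicate 1, 776 were called higher and 53 lower by the same test. The controls left there were standard replicates 2 and 3, and the median log2FC over all features was 4.47, beside 0.55 with all libraries. Leaving out Nikkomycin Z replicate 1, 2 or 3 left 9, 3 and 16 higher. Among the 66 transcripts called higher, 37 had 0 counts in all 3 standard inputs, and their fitted log2FC is no measure of size. In each wild-type input other than standard replicate 3, fewer genes had 1 or 2 counts than had 3 or 4, so that low values are not plain tallies of reads and a 0 may stand for a low value. Folds over a group at 0 were computed against 3 counts over that group and are lower bounds for counting error only.

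**Figure D2:**
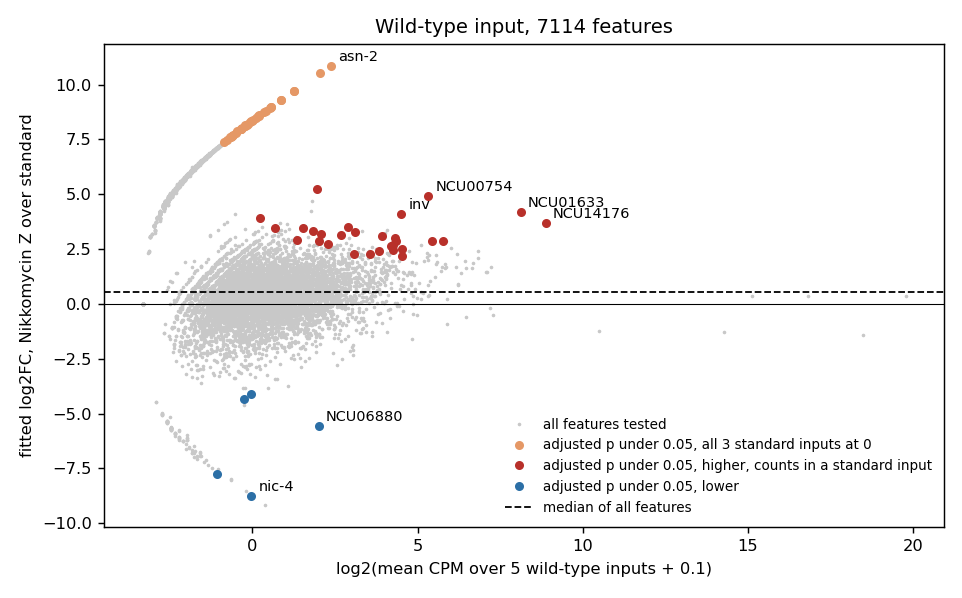
Fitted log2FC (Nikkomycin Z over standard medium) against the mean level over 5 wild-type inputs, standard replicate 3 left out, for all 7114 features, with the 71 called transcripts coloured. The orange arc at the top holds the 37 called transcripts with 0 counts in all standard inputs, and the dashed line marks the median of 0.55.

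The transcript with the smallest p was inv (NCU04265), which encodes invertase, the secreted enzyme that splits sucrose into glucose and fructose. Its counts were 378, 1241 and 469 with Nikkomycin Z and 38, 6 and 0 in standard medium. All 3 treated inputs lay above every control. The log2FC was 4.10 ± 0.67 (SE, adjusted p = 0.0074, edgeR's quasi-likelihood test), and without standard replicate 3 the adjusted p was 0.015. Summed over each group, inv took 10.7 times as large a share of the protein-coding counts. Its annotated span overlaps that of NCU04264.

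The second sugar-related transcript was NCU01633, annotated as hexose transporter HXT13. It reached 5584, 11777 and 6924 counts with the drug and 676, 30 and 0 without it. Here too every treated input exceeded every control, while standard replicates 1 and 2 differed widely from each other. The log2FC was 4.19 ± 0.84 (SE, adjusted p = 0.023, and 0.048 without standard replicate 3). Its share of the protein-coding counts was 7.72 times as large.

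Among the transcripts called higher with counts in a control, NCU00878, an uncharacterized protein, was at 1199, 1647 and 1477 counts with the drug and at 174, 63 and 0 in standard medium (log2FC 2.86 ± 0.60, SE). NCU07388, also of unknown function, was at 143, 282 and 130 against 19, 3 and 0 (log2FC 3.16 ± 0.62, SE). Neither pair of groups overlapped. In all, 29 of the 66 had counts in a control, with log2FC from 2.20 to 5.22. The highest value, that of NCU09885, rested on controls of 3, 0 and 0 counts, and NCU10063 (log2FC 3.92) had 2, 0 and 0. All 66 lay higher in each treated input than in standard replicates 1 and 2 on the CPM scale, as did 25.5% of all features tested. As the 66 were called on these same libraries, this is no separate support for the calls.

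Further transcripts had no counts in any standard input. The one with the most counts, asn-2 (NCU07300), annotated as an asparagine synthetase domain protein, had 223, 154 and 85 counts with Nikkomycin Z. It was at least 49.5-fold higher on the CPM scale and at least 34.6-fold on the scale of protein-coding counts. NCU17074 (104, 162 and 98 counts), NCU01178 (73, 89 and 50) and NCU04942 (62, 64 and 73) have no named function. They were at least 39.0, 22.7 and 21.3-fold higher in CPM, and at least 27.2, 15.9 and 14.9-fold against protein-coding counts. NCU06137, annotated as cytochrome P450 55A2, had 21, 74 and 32 counts. It was at least 13.6-fold higher in CPM and 9.50-fold against protein-coding counts. NCU03910, a probable cytochrome b5 and thus a haem protein of electron transfer, had 22, 36 and 14 counts. Its bounds were 7.71-fold in CPM and 5.39-fold against protein-coding counts. Over all 37, the bounds ranged from 4.28 to 49.5-fold in CPM and from 2.99 to 34.6-fold against protein-coding counts.

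Outside the naming rule, and chosen after their values were seen, were the 3 called ncRNA features and a few cell wall transcripts. NCU14176 was the most abundant of the ncRNAs, with 10342, 17232 and 11983 counts against 1451, 193 and 0 (log2FC 3.68 ± 0.74, SE, adjusted p = 0.023, edgeR's quasi-likelihood test). NCU14131 had 216, 224 and 184 counts against 22, 0 and 0, and NCU14008 had 95, 129 and 111 against 8, 4 and 0. NCU05686, annotated as a cell wall glucanase, rose from 31, 0 and 0 counts to 168, 375 and 203. NCU01395, which carries a WSC domain as wall stress sensors do, was at 6, 21 and 16 counts against 0 in every control. Without standard replicate 3 the adjusted p of NCU05686 was 0.064 and that of NCU01395 was 0.061, and that of NCU14008 was 0.066 (edgeR's quasi-likelihood test). In the other direction, NCU07523, a 1,3-beta glucanase, was at 4, 3 and 4 counts against 31, 4 and 0 (log2FC -2.98, adjusted p = 0.051), and it was called lower when scaled to protein-coding counts (adjusted p = 0.020, and 0.040 without standard replicate 3).

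**Figure D3:**
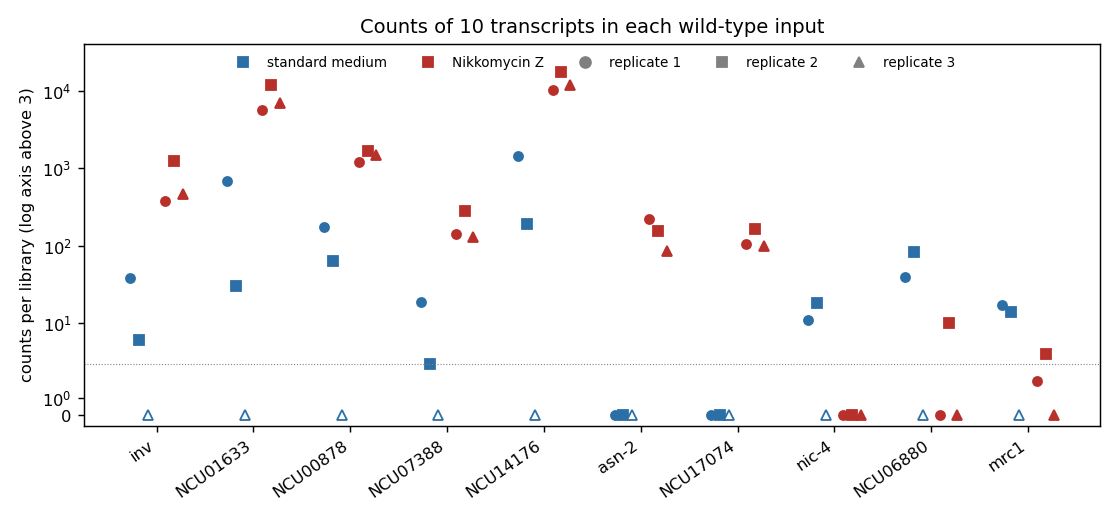
Counts of 10 called transcripts in each wild-type input, on an axis that is logarithmic above 3 (dotted line), with open triangles for standard replicate 3. Red symbols (Nikkomycin Z) lie above blue ones for the first 7 transcripts and mostly at or near 0 for nic-4, NCU06880 and mrc1.

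The 5 lower transcripts were all of low abundance. The gene nic-4 (NCU03347), named for a requirement for nicotinic acid, had 11, 18 and 0 counts in standard medium and 0 in each treated input. It was at least 30.1-fold lower on the CPM scale (adjusted p = 0.0074, edgeR's quasi-likelihood test, and 0.015 without standard replicate 3). NCU06880, a peroxiredoxin, an enzyme that reduces peroxides, fell from 39, 82 and 0 counts to 0, 10 and 0 (log2FC -5.58 ± 1.12, SE). NCU08443 had 16, 11 and 0 counts without the drug and 4, 0 and 0 with it. The gene mrc1 (NCU04321), whose yeast namesake is a mediator of the replication checkpoint, had 17, 14 and 0 against 2, 4 and 0. NCU07175 had 23, 0 and 0 counts against 0 in each treated input, so that its call rested on 1 library, and its adjusted p was 0.071 without standard replicate 3. Of the 5, nic-4, NCU06880 and NCU07175 overlap a neighbouring annotated gene, and whether the counting used strand is not stated.

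The next protein-coding genes in this direction did not pass the test and are given as values. The tubulin beta chain gene bml had 68, 65 and 36 counts with Nikkomycin Z against 90, 125 and 0. It had a log2FC of -2.10 ± 0.60 (SE, adjusted p = 0.077, edgeR's quasi-likelihood test), and its share of the protein-coding counts was 0.176 times that of the controls. Both ATP citrate lyase subunits, which form cytosolic acetyl-CoA, had low values (38, 24 and 14 against 70, 44 and 0 for NCU06785, and 7, 22 and 25 against 62, 39 and 0 for NCU06783), with a log2FC of -2.19 and -2.45. The chaperone gene hsp80 was at 45, 43 and 22 against 69, 108 and 0 (log2FC -2.49), and gpi-1, glucose-6-phosphate isomerase, at 38, 81 and 65 against 98, 116 and 0 (log2FC -1.89). Scaled to protein-coding counts, all 5 of these passed the test, with an adjusted p of 0.020 to 0.023, and of 0.038 to 0.040 without standard replicate 3 (edgeR's quasi-likelihood test).

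Other genes that fell only on that scale were chosen after their values were seen. Both subunits of fatty acid synthase were among them, with 58, 50 and 44 counts against 216, 62 and 0 for cel-1 and 35, 18 and 25 against 77, 93 and 0 for cel-2. Without standard replicate 3 neither passed, with an adjusted p of 0.051 and 0.062 (edgeR's quasi-likelihood test). The 57 lower genes were long, with a median annotated length of 3771 bp against 2499 bp for all genes tested and 2553 bp for the 23 higher ones. Quartiles of gene length were taken on the TMM scale instead, over the 7010 protein-coding genes tested there. Their median log2FC on the TMM scale was 0.83 for the shortest (1753 genes), 0.64, 0.54 and 0.23 for the longest (1753 genes). The part of gene length in these values was not tested.

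No chitin synthase gene passed the test. Of the 7 genes, chs-6 had no counts in any library. The others lay between -0.14 and 0.75 in log2FC, with a median of 0.15 beside 0.55 for all features, and 0 of the 6 reached even an unadjusted p under 0.05. The most abundant was chs-5 with 238, 397 and 168 counts against 79, 68 and 0 (log2FC 0.75 ± 0.69, SE, adjusted p = 0.61, edgeR's quasi-likelihood test). For chs-1, 87, 89 and 44 counts stood against 89, 10 and 0 (log2FC -0.14 ± 0.67, SE). In this gene and in chs-2 (28, 44 and 14 against 30, 4 and 0), chs-3 (43, 69 and 54 against 51, 8 and 0), chs-4 (70, 95 and 51 against 33, 19 and 0) and chs-7 (112, 156 and 139 against 80, 47 and 0) the groups overlapped on the CPM scale. With scaling to protein-coding counts the list's median was -0.57 and all 6 values were negative, again with none past the test. Of 6 genes for chitin precursors and chitin synthase activation or export none passed either, including gfa1, which commits sugar to amino sugar synthesis (207, 291 and 115 counts against 128, 74 and 0, log2FC 0.03 ± 0.56, SE). The UDP-N-acetylglucosamine pyrophosphorylase gene NCU02109 (log2FC -0.01) and the CHS5 homologue NCU07435 (log2FC -1.25) also missed the threshold. Over these 6 genes the log2FC ranged from -2.855 to 0.93, with a median of 0.01. By edgeR's quasi-likelihood test 1 of the 6 was lower at an unadjusted p under 0.05, as were 235 of 7114 features. Scaled to protein-coding counts their median was -0.84, beside -0.04 for all genes, with 1 of 6 positive.

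The genes of glucan synthesis described here did not pass. The catalytic subunit gene fks-1 was at 588, 601 and 393 counts against 363, 143 and 0 (log2FC 0.35 ± 0.79, SE). The alpha-1,3-glucan synthase gene ags-2 had the largest value of these, with 261, 380 and 119 counts against 77, 17 and 0 (log2FC 1.57 ± 0.64, SE, adjusted p = 0.21, edgeR's quasi-likelihood test). For ags-1 the log2FC was 0.80 and for gs-1 it was 1.05.

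None of 5 genes of GEL beta-1,3-glucanosyltransferases, which elongate and branch beta-1,3-glucan in the wall, passed. Their values were spread from -0.67 to 2.07 with a median of 1.25, which was 0.91 without standard replicate 3 and 0.39 when scaled to protein-coding counts. The highest was gel-4 with 201, 239 and 111 counts against 42, 7 and 0 (log2FC 2.07 ± 0.66, SE, adjusted p = 0.11), and all treated inputs lay above both deeper controls. The most abundant member, gel-3, had 900, 1325 and 834 counts against 520, 88 and 0 (log2FC 1.25 ± 0.59, SE). For NCU06781, gel-5 and gel-1 the log2FC was 1.57, 0.53 and -0.67. Of the 19 other wall proteins and hydrolases, 0 passed and 8 were higher at an unadjusted p under 0.05, or 42.1% against 13.9% over all features. Their median was 1.04 with 18 of 19 positive, and 0.43 with 12 of 19 positive when scaled to protein-coding counts. The 3 most abundant anchored wall proteins were acw-3 (1077, 1171 and 940 counts against 629, 341 and 5, log2FC 0.25), acw-4 (692, 1384 and 711 against 229, 63 and 0, log2FC 1.94, adjusted p = 0.088) and acw-8 (504, 943 and 576 against 268, 69 and 0, log2FC 1.33).

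In the cell wall integrity pathway, 0 of 8 genes passed the adjusted threshold (edgeR's quasi-likelihood test). By the same test 4 (50%) were higher at an unadjusted p under 0.05, against 13.9% of all features. The list's median log2FC was 1.21, with 6 of 8 positive. Scaled to protein-coding counts it was 0.53, with 5 of 8 positive. Of the surface sensors, wsc-1 was at 623, 819 and 458 counts against 298, 29 and 0 (log2FC 1.44 ± 0.59, SE, adjusted p = 0.22), and ham-7 at 76, 129 and 84 against 111, 0 and 0 (log2FC 0.27 ± 0.95, SE). The protein kinase C gene pkc-1 had a log2FC of 0.98. In the kinase cascade, mek-1 was at 151, 156 and 59 counts against 32, 10 and 0 (log2FC 1.57 ± 0.67, SE), while mik-1 and mak-1 were at -0.14 and -0.22. The transcription factor gene rlm-1, whose yeast homologue acts at the end of this cascade, was at 284, 392 and 129 counts against 71, 0 and 0 (log2FC 2.26 ± 1.02, SE, adjusted p = 0.26). For adv-1, a transcription factor required for cell fusion and development, 558, 595 and 317 counts stood against 196, 22 and 0 (log2FC 1.57 ± 0.62, SE).

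The gene gul-1 had 39, 47 and 14 counts with Nikkomycin Z against 32, 40 and 0 (log2FC -1.39 ± 0.75, SE, adjusted p = 0.34, edgeR's quasi-likelihood test), and its share of the protein-coding counts was 0.312 times that of the controls. The kinase gene cot-1 was at 53, 56 and 45 counts against 36, 0 and 0 (log2FC 0.86 ± 0.75, SE). Its MOB-type activators mob-2a and mob-2b and the upstream kinase gene pod-6 had no more than 28 counts in any of these inputs and a log2FC of -0.26, -0.81 and 1.72. None of the 5 passed.

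**Figure D4:**
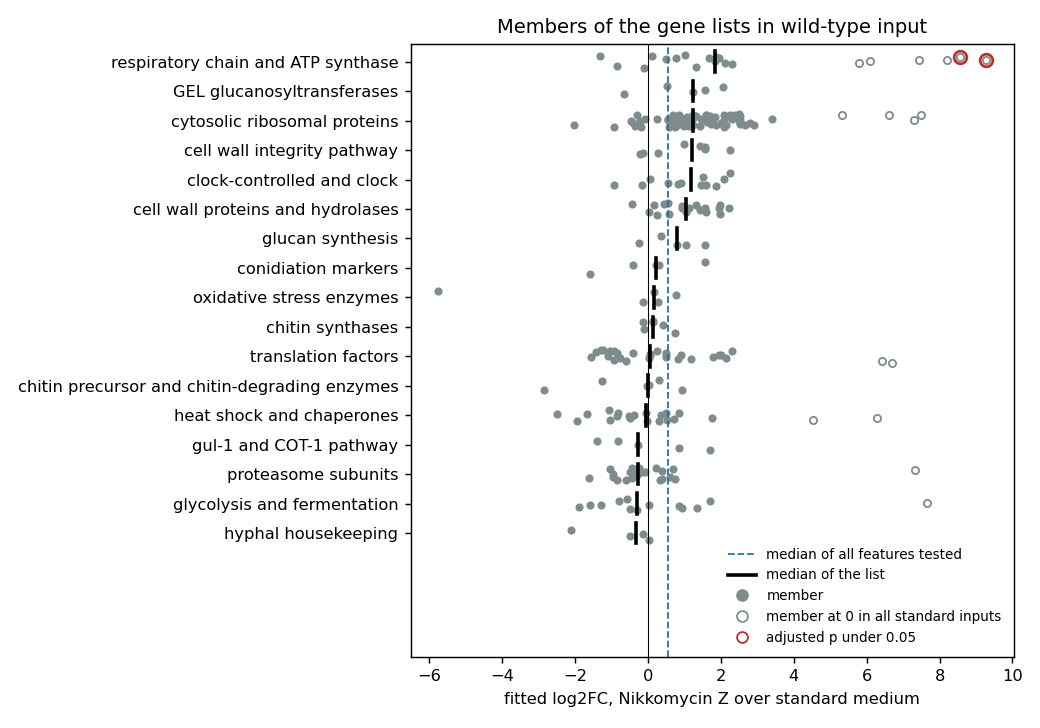
Fitted log2FC of each tested member of 17 gene lists in wild-type input, with black bars for list medians and the dashed line at the median of all features (0.55). Open circles are members at 0 in all standard inputs, and red rings mark cox-4 and NCU00636, the 2 members that passed the test.

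Transcripts of 76 cytosolic ribosomal proteins had a median log2FC of 1.23 (1.22 with the 4 genes at 0 in all controls set to their bound), with 65 above the median of all features. None passed after adjustment, and 39 (51.3%) were higher at an unadjusted p under 0.05, against 13.9% of all features. The smallest adjusted p among the most abundant members was that of cyh-2, 60S protein L28, with 486, 640 and 272 counts against 49, 39 and 0 (log2FC 2.26 ± 0.62, SE, adjusted p = 0.063). NCU09089 (40S protein S30) was at 410, 517 and 259 against 18, 63 and 0, and NCU09476 (S25) at 291, 317 and 228 against 108, 78 and 0. Together the 76 took 2.79, 2.59 and 2.47% of the protein-coding counts with the drug and 1.56 and 2.32% in standard replicates 1 and 2. On the scale of protein-coding counts their median was 0.56 beside -0.04 for all genes, and 58 of 76 were positive. Of 29 translation factors 0 passed and the median was 0.06, with tef-1 at 0.02, cot-3 at -0.94 and eif5A at 0.49.

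The 20 tested transcripts of the respiratory chain and ATP synthase had a median log2FC of 1.85, or 1.50 with the 6 at 0 in all controls set to their bound, and 0.95 when scaled to protein-coding counts. Of these, 2 passed as higher, where 0.928% of all features did so, and both were at 0 in all controls. The first was cox-4, a nuclear-encoded subunit of cytochrome c oxidase (28, 33 and 30 counts, at least 9.74-fold higher on the CPM scale). The other was NCU00636, subunit d of ATP synthase (56, 64 and 36 counts, at least 16.7-fold on that scale). Both overlap another annotated gene. The mitochondrially encoded oxidase subunits were the most abundant members and did not pass: NCU16016, subunit 1, was at 3044, 2398 and 1933 counts against 704, 221 and 0 (log2FC 1.86 ± 1.02, SE, adjusted p = 0.34, edgeR's quasi-likelihood test). For subunits 3 (NCU16003) and 2 (NCU16028) the log2FC was 1.96 and 1.69. The ATP synthase beta subunit gene atp-2, chosen after its values were seen, went the other way with 63, 119 and 100 counts against 143, 103 and 0 (log2FC -1.32).

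Lists of central metabolism, protein turnover and stress lay below the median of all features. Glycolysis and fermentation had a median log2FC of -0.30 over 13 genes, with gpd-1 at -0.50, cfp (pyruvate decarboxylase) at 0.86 and adh-1 (alcohol dehydrogenase) at 0.93. The 24 proteasome subunits had a median of -0.27 (pcb-1 0.60, pca-1 0.39, rpn-2 -0.61), and 21 heat shock proteins and chaperones had -0.05, or -0.38 with the 2 genes at 0 in all controls set to their bound (hsp98 -1.08, NCU07232 0.52). None of these genes passed, nor did any of 5 oxidative stress enzymes (median 0.17, with sod-2 at -0.12, cat-1 at 0.26 and cat-2 at 0.17). In the same list, sod-1 was at 0.77, and cat-3 had 3 counts in standard replicate 2 and 0 in all other wild-type inputs. With total counts as library sizes the medians of the first 3 lists were 0.04, 0.08 and 0.25, and with protein-coding counts as library sizes they were -1.33, -0.97 and -0.88. Their sign thus changed with the scaling, while all stayed below the median of all features. Without standard replicate 3 the median for glycolysis and fermentation was -0.64.

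The 2 deeper standard inputs differed from each other in the same lists. Glycolysis and fermentation genes took 1.06% of the protein-coding counts in standard replicate 1 and 4.81% in replicate 2, against 1.12 to 1.64% with the drug. Heat shock genes took 0.599 and 1.17%, against 0.417 to 0.436%. Hyphal markers (act, bml, tef-1 and gpd-1) took 0.367 and 1.304%, against 0.236 to 0.320%. Markers of conidiation, the formation of asexual spores, took 0.470% in replicate 1 and 0.0139% in replicate 2, against 0.181 to 0.276%. The rodlet protein gene eas was at 448, 0 and 0 counts in standard medium and at 280, 196 and 148 with the drug, con-8 at 180, 7 and 0 against 461, 407 and 304, and fl at 180, 0 and 0 against 167, 170 and 116. All 5 conidiation markers and all 4 hyphal markers were detected in at least 1 wild-type input. The part of these differences in the calls was not tested.

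Of 12 tested clock and clock-controlled genes none passed. The median was 1.18, beside 0.55 for all features, or 0.86 without standard replicate 3, and 0.18 when scaled to protein-coding counts, beside -0.04. The blue-light receptor gene vvd was at 1085, 1592 and 990 counts against 368, 17 and 0 (log2FC 2.25 ± 0.76, SE, adjusted p = 0.13, edgeR's quasi-likelihood test). The most abundant, ccg-14, was at 2087, 4526 and 2697 against 604, 630 and 0 (log2FC 1.44), whereas ccg-16, a cyanovirin homologue, was at 734, 791 and 428 against 695, 671 and 0 (log2FC -0.93). Scaled to protein-coding counts, ccg-16 passed as lower, with a log2FC of -2.10 and an adjusted p of 0.043, but not without standard replicate 3 (adjusted p = 0.057, edgeR's quasi-likelihood test).

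The same drug comparison in the wild-type pull-downs, which show what the beads retain from a strain without GFP, used other libraries of this strain. The methods do not say that inputs and pull-downs came from separate cultures, so they may share extracts and need not be independent. The fit did not pair them. There inv had 486, 778 and 1091 counts with Nikkomycin Z against 50, 38 and 142 (log2FC 3.96, adjusted p = 0.0020, edgeR's quasi-likelihood test), again with no overlap. NCU01633 had 5660, 5126 and 9688 against 660, 219 and 1140 (log2FC 3.73, adjusted p = 0.096, and 0.045 without standard input replicate 3). Of the 66 transcripts, 2 passed in the pull-downs, inv and NCU01873, where 0.0281% of all features did so. Without standard input replicate 3 there were 4, with NCU00878 (adjusted p = 0.027) and NCU01633 added, and 0.0562% of all features (edgeR's quasi-likelihood test). A positive value was seen for 57 of the 66. Their median log2FC there was 1.11, beside 0.00 for all features. All 5 lower transcripts had negative values in the pull-downs, from -3.25 to -0.76. The test of the difference between the drug effects in input and pull-down called no transcript (edgeR's quasi-likelihood test, 0 of 7114, with 502 larger and 36 smaller in the input at an unadjusted p under 0.05). For asn-2, which was at 0 in all standard inputs, the pull-down groups overlapped, with 164, 37 and 161 counts with the drug against 5, 49 and 594.

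In the GUL-1-GFP strain the values stood apart from those of the wild-type. Its inputs held 30660 to 48884 protein-coding counts and detected 2452 to 2714 protein-coding genes. A transcript without counts in those inputs has a fitted log2FC of 0, which is not a measured lack of response. There inv was at 6 and 7 counts with Nikkomycin Z and at 11 and 12 in standard medium. NCU01633 was at 86 and 74 against 398 and 110. Of the 66 transcripts, 2 passed as higher and 1 as lower in these inputs, where 0.787% and 0.759% of all features did so. Without standard replicate 3 of the wild-type these were 1 and 1, beside 0.604% and 0.534%. For the pull-downs of that strain, inv was at 331, 100 and 273 counts against 861, 75 and 184. The drug effect differed between the wild-type and GUL-1-GFP inputs for 126 transcripts (edgeR's quasi-likelihood test, adjusted p under 0.05, 1.77% of 7114, and 110 or 1.55% without standard replicate 3). Among them were 13 of the 66 higher and 3 of the 5 lower transcripts, or 12 and 2 without that replicate. The 71 were chosen by the same wild-type input values that enter this difference. Their number among the 126 is thus no separate evidence. In the pull-downs of GUL-1-GFP none of the 71 passed, and 0 of 7114 features did (33 higher and 268 lower at an unadjusted p under 0.05).

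**Figure D5:**
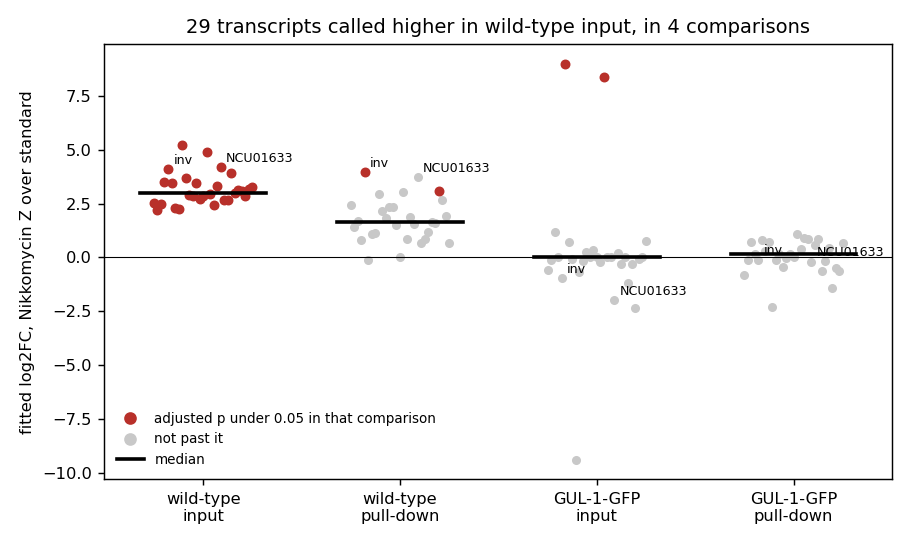
Fitted log2FC (Nikkomycin Z over standard medium) in 4 comparisons for the 29 transcripts that were called higher in wild-type input and had counts in a control. Medians (bars) are 3.01 in wild-type input, 1.65 in wild-type pull-down, 0.00 in GUL-1-GFP input and 0.14 in GUL-1-GFP pull-down. Red points passed the test in that comparison. Over all features the medians are 0.55, 0.00, 0.00 and -0.09 in the same order. NCU14131, NCU04045, NCU00541, NCU08738 and NCU10063 had no counts in any GUL-1-GFP input, and their value of 0 there is not a measured lack of response.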

How the data were processed

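The authors deposited raw counts per gene for 10592 features in 22 libraries. The sources differ on how the counts were made: the submitters' notes name CASAVA 1.8.2, HISAT2 2.1.0 and StringTie 1.3.3b, whereas the methods describe Tophat and HTSeq with unique reads. The genome build is not given in the sources used here. Gene symbols and lengths were taken from NC12, which holds 10590 of the 10592 identifiers, and product names for 3319 identifiers from the study's tables. Total counts of the 6 wild-type inputs ranged from 259583 to 28010852. Intervals and floors cover counting error only.

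Libraries were grouped by the labels into 8 groups and fitted in one model with edgeR 4.0.16 in R 4.3.3 (TMM, filterByExpr with a minimum count of 10, quasi-likelihood test, Benjamini-Hochberg adjustment, threshold 0.05). The SE is the log2FC divided by the square root of edgeR's F. Differences between drug effects were tested as interactions. DESeq2 1.42.0 was an alternative. The methods speak of biological replicates but do not say that each library came from its own culture. The p-values thus rest on the spread between libraries, which may be technical in part. That spread was estimated over all 8 groups together, pull-downs and GUL-1-GFP libraries included, and not from the 6 wild-type inputs alone.

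Named were every member of 5 lists (chitin synthases, glucan synthesis, GEL, cell wall integrity, gul-1 and COT-1), except 1 gene that is not reported here, the 10 protein-coding genes with the smallest p called in each direction, and the 3 most abundant members of each other list. As only 5 were lower, 5 more were filled in by p without standard replicate 3, at a mean of at least 20 counts. NCU00430 was dropped as the annotation gives its name to another locus. Members, lists and tests were chosen with earlier results of these data known. The procedure was tested on simulated data. There the wild-type inputs shared the same composition apart from the features that were altered. The simulation thus did not mimic standard replicate 3, which held almost no mRNA, or the differences between the other standard inputs. The scaling to protein-coding counts, protein-coding genes without standard replicate 3, and standard replicate 1 as the one control were added after seeing the data. No sequences are shown.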

Additional observations from a re-analysis of the deposited data

Results flagged for a closer look

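The effect of Nikkomycin Z differed between the wild-type inputs and the GUL-1-GFP inputs for 126 transcripts by a test of the difference itself (edgeR's quasi-likelihood test, interaction of strain and drug). Among those called higher in the wild-type, the adjusted p of this difference was 0.013 for inv, 0.015 for NCU01633, 0.039 for NCU07388, 0.039 for NCU17074, 0.040 for asn-2, 0.039 for NCU14176, 0.026 for NCU02378, 0.011 for NCU01873, 0.011 for NCU09885, 0.011 for NCU05989, 0.0075 for NCU07505, 0.035 for NCU04292 and 0.015 for NCU08633. Among the lower ones it was 0.0020 for nic-4, 0.0088 for NCU06880 and 0.044 for mrc1. The ribosomal protein transcript NCU09089 had an adjusted p of 0.0017, with 0 and 0 counts in the GUL-1-GFP inputs with the drug against 29 and 80 without it. Without standard replicate 3 the calls of asn-2 (adjusted p = 0.053) and mrc1 (0.053) were lost, by the same edgeR's quasi-likelihood test, and the other transcripts named here still passed. Each GUL-1-GFP input group had 2 libraries. Several of these differences rest on counts at or near 0. In those inputs, NCU04292 had 0 and 0 counts with the drug against 0 and 3 without it. NCU08633 had 0 and 0 against 0 and 6, and NCU05989 had 0 and 0 against 12 and 0. NCU07505 had 0 and 0 against 9 and 8, and NCU17074 had 10 and 0 against 7 and 0. All of these were also at 0 in every wild-type standard input, so the size of their difference is not measured. The same holds for asn-2, with 0 and 5 counts against 8 and 0 in the GUL-1-GFP inputs. There nic-4 had 7 and 10 against 0 and 0. It was at 0 in every wild-type input with the drug, so its size is not measured either. Low counts also underlie mrc1 (7 and 8 against 0 and 6) and NCU09885 (0 and 0 against 14 and 9).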

How the results depend on the processing

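With each wild-type input left out in turn, between 0 and 776 transcripts were higher and between 0 and 53 lower. The most came without standard replicate 1, where the median log2FC over all features was 4.47. Correlations of deviations between inputs of the same replicate number were 0.05, -0.01 and -0.07, and 0.05 for the difference between replicates 1 and 2. The first 3 values include standard replicate 3, which held almost no mRNA, so they cannot decide whether the inputs were paired. With the replicate block 142 were higher and 13 lower, and 25 and 3 without standard replicate 3. On 6 inputs alone 54 were higher and 3 lower, and on 5 alone 0 and 0 (edgeR's quasi-likelihood test, 472 and 190 at an unadjusted p under 0.05). Of the calls on 6 inputs, 25 were among the 71, with asn-2 and NCU17074 included (adjusted p = 0.0013 each, same test). By that test inv (adjusted p = 0.052), NCU01633 (0.13), NCU07388 (0.097) and NCU14176 (0.25) missed the threshold on 6 inputs. DESeq2 gave 246 and 49, or 360 and 103 without standard replicate 3. Total counts as library sizes gave 7 and 3, no filter 127 and 26, and a mean of at least 20 counts 12 and 1. Of the settings chosen after seeing the data, protein-coding counts as library sizes gave 23 and 57, or 4 and 12 without standard replicate 3, protein-coding genes only without that replicate 13 and 2, and standard replicate 1 as the one control 0 and 0 (480 and 210 at an unadjusted p under 0.05). TMMwsp and protein-coding genes only stayed within 1.5 times of both counts. Over 21 settings, NCU04942 and NCU17074 passed in 18, inv, NCU01178 and NCU06137 in 16, and nic-4 in 16 of the 19 that tested it. The fitted log2FC of NCU07175 ranged from -8.59 without standard replicate 2 to 0 without standard replicate 1. The difference in rRNA share was -1.07 percentage points, and with 1 input left out it ranged from -2.97 without standard replicate 2 to 0.614 without standard replicate 3. The causes were not tested, except that fewer libraries or features entered some fits.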
